A study of Ovis aries with 24 samples.

Results

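The genes described here belong to the unfolded protein response and to protein folding in the endoplasmic reticulum (ER). They are a list of 36 genes that sense ER stress, signal from it, fold secretory proteins or remove misfolded ones. A gene was a member if a row of the deposited count tables carried its name. Of the 36 genes, 33 had such a row among 27054 features, and all 33 passed the filter on low counts in every comparison. XBP1, DNAJB11 and DERL3 are not analysed here, so the transcription factor that acts directly after the sensor ERN1 is missing from the set.

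Proteins that enter the ER are folded there by chaperones and by enzymes that form disulfide bonds. When unfolded protein accumulates, separate sensors in the ER membrane respond. ERN1 (IRE1) splices XBP1 messenger RNA, EIF2AK3 (PERK) phosphorylates eIF2alpha and so slows translation while ATF4 is made, and ATF6 is cut in the Golgi to release a transcription factor. The responses raise chaperones and the machinery of ER-associated degradation, and prolonged PERK signalling raises the factor DDIT3 (CHOP). Hormone-secreting pituitary cells depend on this system because they export large amounts of protein.

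All 24 libraries came from pituitary cells of ovariectomized ewes of the Western white faced breed, dispersed and kept on plastic. A day after dispersal every culture received an adenovirus that drives green fluorescent protein (GFP) in gonadotropes, the cells that make the gonadotropins. Later came a 6 hour exposure to estradiol (E2) at 10 nM or to its vehicle, ethanol. RNA was sequenced from GFP-sorted cells and from unsorted anterior pituitary cells with each treatment, which makes 4 groups of 6 libraries. Every animal thus lacked ovaries and every culture carried the virus, and the cells had spent days outside the gland. No label says whether unsorted cells also passed through the sorter, or whether libraries with the same replicate number share a culture or an animal. The main p-values measure the spread between these libraries that is left once the replicate number is fitted, which may be partly technical.

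Libraries numbered 1 to 3 (12 in all) held 4.19 to 6.19 M counts, and the 12 numbered 4 to 6 held 19.2 to 37 M. Levels below are CPM, the count scaled to a library of a fixed size, on normalised library sizes, given as the lowest, median and highest of 6 libraries. Differences are log2 values ± SE from edgeR's quasi-likelihood test with the replicate number as a block, because libraries with the same number deviated together. A gene was called higher or lower when its adjusted p over all features was under 0.05. The members took similar shares of all counts in each group, with medians of 1.21% in sorted vehicle, 1.14% in unsorted vehicle, 1.21% in sorted E2 and 1.14% in unsorted E2 libraries.

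The first question was how sorted and unsorted cells differed without E2. EIF2AK3, ATF4, DDIT3 and the 4 listed targets of ATF4 and PERK were higher in sorted cells. Several degradation genes, WFS1 and the membrane-bound factors CREB3L1 and CREB3L2 were lower. Activity of the sensors was not tested. Of the 33 members, 13 were called higher (39.4%) and 8 lower (24.2%), with a median difference of 0.13. Over the 14468 features tested, 32.5% were called higher and 31.1% lower, and the median was 0.02. The members as a whole thus differed about as often as other features did. Without the block, 8 members were higher and 8 lower, and over all features 3529 were higher and 3738 lower.

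Levels of cell type markers differed between sorted and unsorted cells. All 5 gonadotrope markers (CGA, LHB, FSHB, GNRHR and NR5A1) were higher in sorted vehicle libraries, where their summed level was 2492 to 5630.5 CPM against 291 to 1323 CPM in unsorted ones. Of 7 fibroblast and pericyte markers, 5 were lower and 1, DCN, was higher, and their sum was 649 to 1389.9 CPM against 3589 to 9239.7 CPM. The stem and folliculostellate markers SOX2, SOX9 and FXYD1 were lower while ALDH1A1 was higher. The sum of that list was 1083 to 1597 CPM in sorted against 831 to 1147 CPM in unsorted vehicle libraries. All tested markers of lactotropes (2), somatotropes (3), corticotropes (3) and thyrotropes (3) were higher, and lactotrope markers summed to 67608 to 177789 CPM in sorted against 39130.4 to 90617 CPM in unsorted vehicle libraries. Of 5 endothelial markers 3 were lower and 1 higher, and of 4 immune markers tested 2 were lower. No marker list had a gene at 0 in all libraries of a group. The part of these shifts in the differences below was not tested, and in bulk RNA fewer cells of a type and less RNA per cell cannot be told apart.

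**Figure D1:**
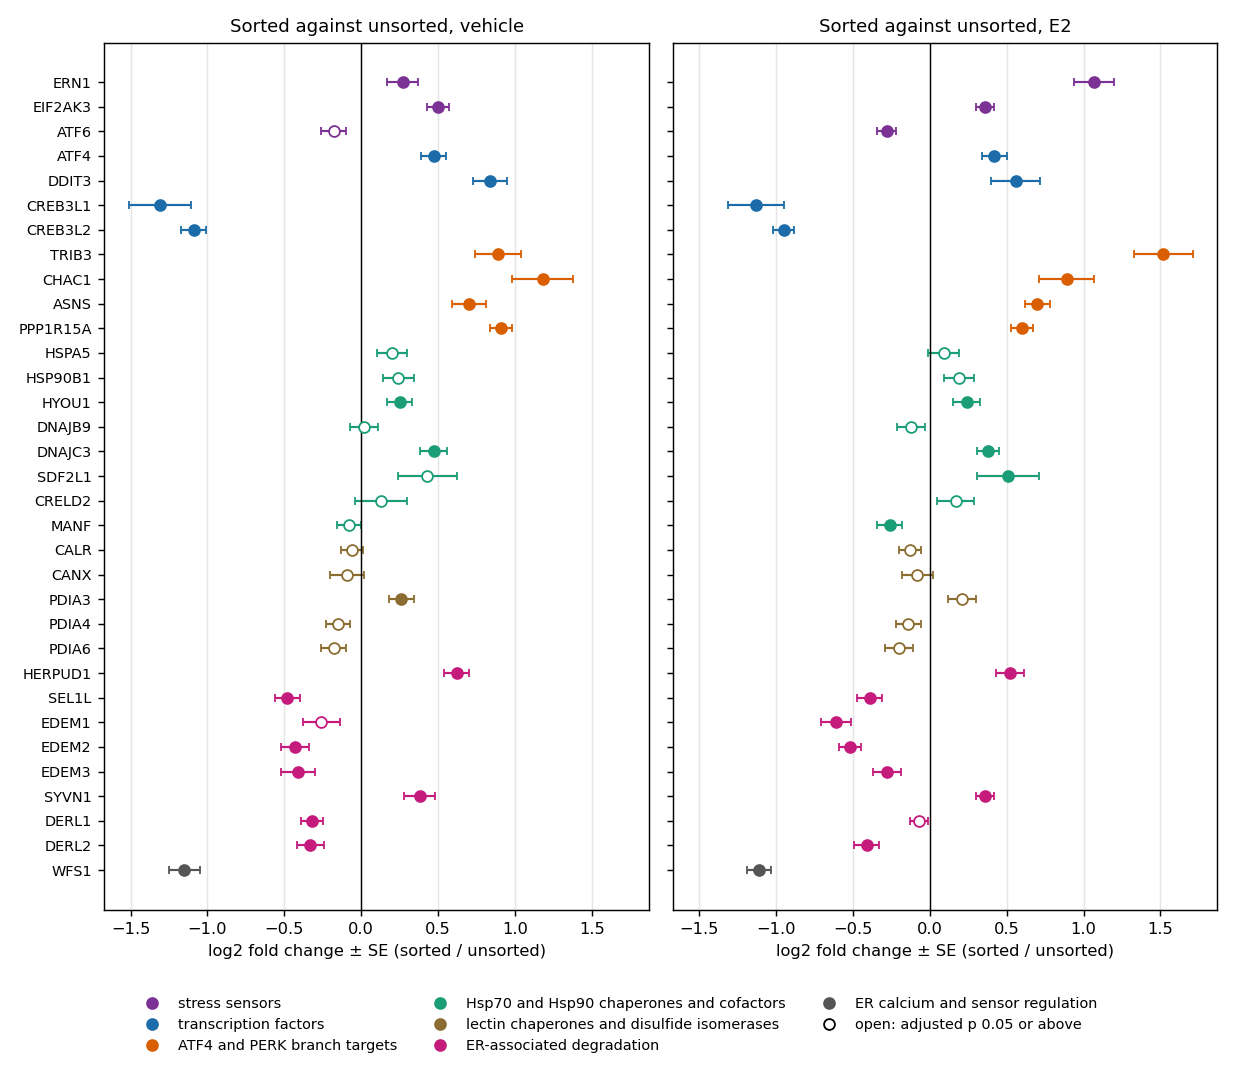
Log2 difference between sorted and unsorted cells for the 33 members, with vehicle on the left and E2 on the right. Points are edgeR estimates, bars are ± SE, colours are roles, and filled points passed an adjusted p of 0.05. The 4 ATF4 and PERK branch targets lie right of 0 in both panels, and WFS1, CREB3L1 and CREB3L2 lie near or below -1.

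Among the sensors, EIF2AK3 (ENSOARG00000020774) stood at 149.8, 171 and 192 CPM in sorted vehicle and at 97.3, 123 and 136 CPM in unsorted vehicle libraries. The groups did not overlap, and the gene was higher by 0.50 ± 0.07 in sorted cells (adjusted p = 0.00014). ERN1 (ENSOARG00000014398) stood at 15.5, 22.3 and 27.4 CPM against 12.7, 18.5 and 24.2 CPM. These ranges overlapped widely. ERN1 was nevertheless higher in the sorted library of all 6 numbers, by 0.27 ± 0.10 (adjusted p = 0.031; 0.20 without the block). That call was lost when number 1, 2, 5 or 6 was left out, with an adjusted p up to 0.089, and in replicates 4 to 6 alone (0.15; adjusted p = 0.20). ATF6 (ENSOARG00000010418) stood at 74.8, 100.1 and 110 CPM against 87.8, 112 and 143 CPM, a difference of -0.18 ± 0.08 that did not pass (adjusted p = 0.068).

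All 4 measured transcription factors differed, ATF4 and DDIT3 in one direction and the CREB3 relatives in the other. Over all features 32.5% were higher and 31.1% lower. ATF4 (ENSOARG00000016775), the main effector of PERK, stood at 657, 730.3 and 809 CPM in sorted and 481, 503 and 604 CPM in unsorted vehicle libraries. It was higher by 0.47 ± 0.08 (adjusted p = 0.00044), with no overlap. DDIT3 (ENSOARG00000006500), which promotes cell death under lasting stress, stood at 25.3, 34.7 and 48.5 CPM against 15.9, 18.8 and 22.4 CPM. Again the groups were apart, and the difference was 0.84 ± 0.11, or 1.78-fold (adjusted p = 4.8e-05).

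CREB3L1 and CREB3L2 are released from the membrane like ATF6 and raise secretory and matrix genes in several tissues. CREB3L2 (ENSOARG00000009957) stood at 30.7, 38.5 and 52.8 CPM in sorted vehicle and 66.8, 87 and 102 CPM in unsorted vehicle libraries, and was lower by 2.13-fold (-1.09 ± 0.08; adjusted p = 1.2e-06). For CREB3L1 (ENSOARG00000003188) the values were 58.1, 74.5 and 92.7 CPM against 95.9, 186 and 350 CPM, a difference of -1.31 ± 0.20 (adjusted p = 0.00085). Its unsorted level was the more variable, and the difference was -0.84 in replicates 1 to 3 and -1.74 in replicates 4 to 6. In these libraries 5 of 7 fibroblast and pericyte markers were lower and 1 was higher, from -2.91 (ACTA2) to 0.82 (DCN). A link to the CREB3L1 and CREB3L2 differences was not tested.

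The 4 targets of ATF4 and PERK were all called higher, with a median of 0.90, against 32.5% of all features called higher. CHAC1 (ENSOARG00000020312), which breaks down glutathione, stood at 4.9, 7.93 and 10.1 CPM in sorted and 2.07, 3.31 and 4.22 CPM in unsorted vehicle libraries. Its difference was 1.18 ± 0.20 (adjusted p = 0.00039). PPP1R15A (GADD34; ENSOARG00000012344), which directs the phosphatase that restores translation, stood at 122, 131 and 167 CPM against 65.1, 70.8 and 90 CPM. Neither gene's groups overlapped, and PPP1R15A was 1.88-fold higher (0.91 ± 0.07; adjusted p = 9.4e-07). TRIB3 (ENSOARG00000019129), a pseudokinase that DDIT3 induces, stood at 6.29, 9.23 and 15.7 CPM against 3.74, 5.52 and 8.44 CPM. The ranges met, and the difference of 0.89 ± 0.15 passed (adjusted p = 0.00047). ASNS (ENSOARG00000004686), asparagine synthetase, stood at 114, 179 and 234 CPM against 59.3, 97.6 and 216 CPM. Unsorted replicates 1, 2 and 3 (139, 216 and 116 CPM) lay within the sorted range, and the difference of 0.70 ± 0.11 passed with the block (adjusted p = 0.00016) but not without it (0.11).

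Of 13 chaperones and disulfide isomerases, 3 were higher and none lower, where 32.5% of all features were higher and 31.1% lower. HSPA5 (BiP; ENSOARG00000012928), the Hsp70 chaperone that keeps the sensors silent, stood at 1853, 1999 and 2614 CPM in sorted and 1538, 1778 and 2246 CPM in unsorted vehicle libraries. Its difference of 0.20 ± 0.10 did not pass (adjusted p = 0.099) and was 0.01 in replicates 1 to 3 and 0.38 in replicates 4 to 6. HSP90B1 (GRP94; ENSOARG00000016366), the Hsp90 of the ER, behaved alike, at 2065, 2308 and 2715 CPM against 1489, 1991 and 2457 CPM. Its difference was 0.24 ± 0.10 (adjusted p = 0.065), with -0.02 and 0.49 in the same sets of replicates. The range of both genes overlapped between the groups.

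DNAJC3 (p58IPK; ENSOARG00000002176), a J-domain cochaperone that also inhibits PERK, was the chaperone gene with the firmest difference. It stood at 158, 178 and 191 CPM in sorted and 102, 129 and 163 CPM in unsorted vehicle libraries, higher by 0.47 ± 0.09 (adjusted p = 0.00099). HYOU1, a large Hsp70 relative that exchanges nucleotides on BiP, was higher by 0.25 ± 0.08 (adjusted p = 0.019; 0.12 without the block). The disulfide isomerase PDIA3 was higher by 0.26 ± 0.08 (adjusted p = 0.015; 0.073 without the block). HYOU1 lost its call without replicate 3, 5 or 6, and PDIA3 without replicate 4 or 5. Neither was called in replicates 1 to 3 alone (0.15 and 0.10; adjusted p = 0.24 and 0.46). DNAJC3 was called in both sets, at 0.26 and 0.66. The other 8 genes (DNAJB9, SDF2L1, CRELD2, MANF, CALR, CANX, PDIA4 and PDIA6) lay between -0.18 and 0.43 and were not called.

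Replicate 5 bore on this count. Leaving it out gave 10 higher and 12 lower members: ERN1, HYOU1 and PDIA3 were no longer called, while ATF6, EDEM1, PDIA4 and PDIA6 were called lower. Over all features it gave 4008 higher and 3925 lower, against 4695 and 4503 with all numbers. The sorted vehicle library numbered 5 held the highest level of its group for 10 of the 13 chaperone and isomerase genes and for 20 of the 33 members. Over all features it held the highest level for 21.3%.

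Members of ER-associated degradation differed in both directions. The degradation machinery at the membrane includes SYVN1 (HRD1), a ubiquitin ligase, its partner SEL1L, the recruiter HERPUD1 and the derlins, which help move proteins out of the ER. The EDEM proteins trim mannose from glycoproteins that fail to fold. Of 8 members 2 were higher (25%) and 5 lower (62.5%), against 32.5% and 31.1% of all features.

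HERPUD1 (ENSOARG00000018807) stood at 184, 209 and 255 CPM in sorted and 119, 137 and 151 CPM in unsorted vehicle libraries. These did not overlap, and it was higher by 0.62 ± 0.08 (adjusted p = 4.8e-05). SYVN1 (ENSOARG00000012951) stood at 83.1, 101 and 128 CPM against 56.9, 75.8 and 104 CPM, with some overlap. Its difference of 0.38 ± 0.10 passed with the block (adjusted p = 0.0049) but not without it (0.055).

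The partner of SYVN1 went the other way. SEL1L (ENSOARG00000003001) stood at 59, 63.1 and 82.3 CPM in sorted and 77, 94.1 and 99.5 CPM in unsorted vehicle libraries, lower by 0.48 on the log2 scale (-0.48 ± 0.08; adjusted p = 0.00025). Only sorted replicate 5 lay above the lowest unsorted library. EDEM2 (ENSOARG00000011854) stood at 27.1, 37.1 and 44.6 CPM against 40.2, 48.8 and 55.9 CPM, with a difference of -0.43 ± 0.09 (adjusted p = 0.0013). EDEM3 differed by -0.41 ± 0.11 and DERL2 by -0.33 ± 0.09, both called lower (adjusted p = 0.0059 and 0.0061). In replicates 4 to 6 alone neither was called (-0.14 and -0.15; adjusted p = 0.16 and 0.14), against -0.68 and -0.53 in replicates 1 to 3. DERL1 (ENSOARG00000010948) stood at 52, 53.2 and 67.1 CPM against 62.2, 70.2 and 75.4 CPM, lower at -0.32 ± 0.07 (adjusted p = 0.002). EDEM1 (ENSOARG00000007760) stood at 27, 37.5 and 66.5 CPM against 39.4, 45.9 and 58 CPM. The highest and the lowest values both came from sorted libraries, and the difference of -0.26 ± 0.12 was not called (adjusted p = 0.072).

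WFS1 (wolframin; ENSOARG00000005787), an ER membrane protein that regulates calcium and restrains ATF6, stood at 37.7, 62.4 and 84.1 CPM in sorted and 93.6, 135 and 159.5 CPM in unsorted vehicle libraries. The groups were apart, and WFS1 was 2.21-fold lower in sorted cells (-1.15 ± 0.10; adjusted p = 2.1e-06).

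**Figure D2:**
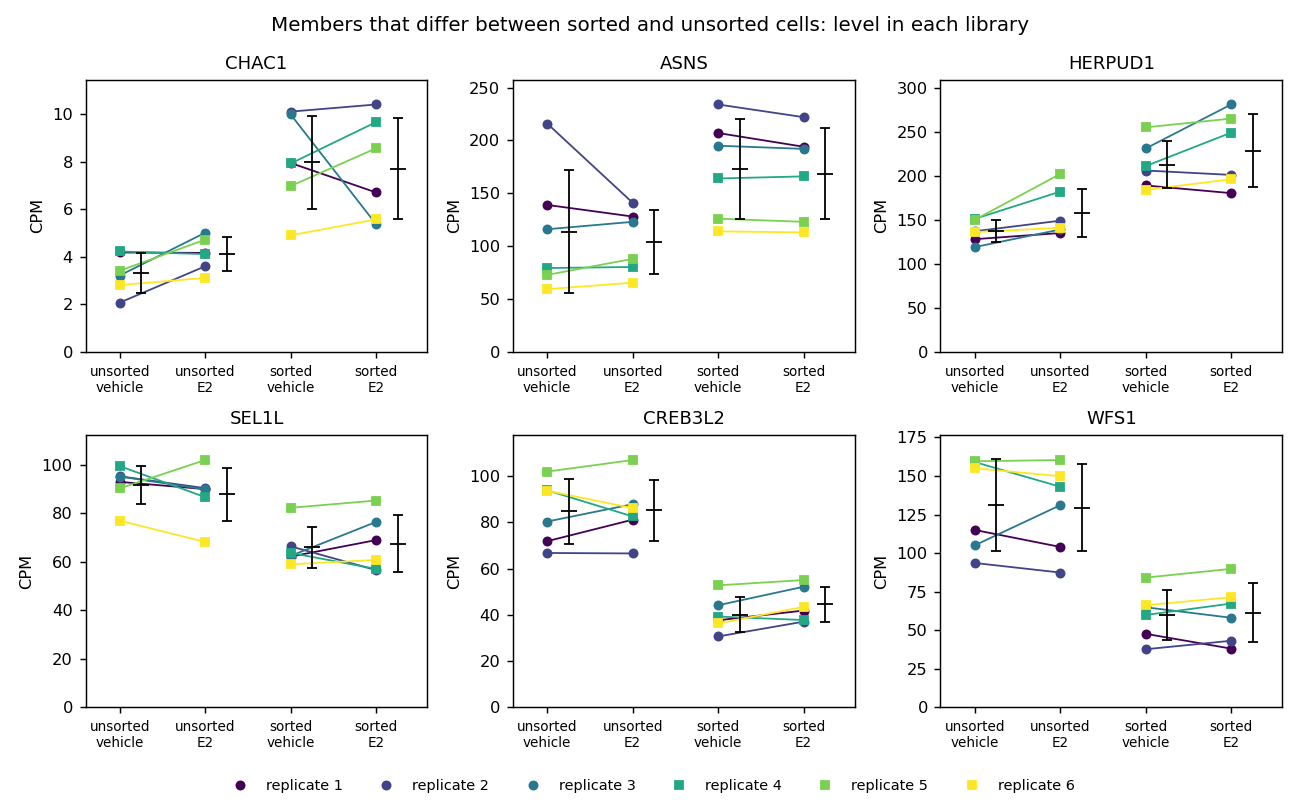
Level in CPM of 6 members in each of the 24 libraries. Lines join the vehicle and E2 libraries of a replicate number, circles are numbers 1 to 3, squares 4 to 6, and bars are mean ± SD of 6 libraries. Sorted libraries are higher for CHAC1, ASNS and HERPUD1 and lower for SEL1L, CREB3L2 and WFS1, although ASNS of unsorted vehicle replicates 1, 2 and 3 (139, 216 and 116 CPM) lies inside the sorted range.

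The same contrast in E2-treated cells used other libraries. Here 13 members were higher (39.4%) and 10 lower (30.3%), against 33.9% and 31.8% of 14545 features, with medians of 0.09 and 0.02. Of the 13 higher members in each treatment 12 were shared, and the 7 lower in both were 7 of 8 and 7 of 10. Cultures with the same number may be the same, so this is not independent evidence. The overlap over all features was not counted, so that of the members cannot be called particular to them. Without the block 11 members were higher and 7 lower, and over all features 3749 were higher and 3784 lower. Gonadotrope markers were at 2648 to 5250.1 CPM in sorted and 282 to 1498 CPM in unsorted E2 libraries, and fibroblast and pericyte markers at 715 to 1697 CPM against 4129 to 8704 CPM.

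ERN1 stood at 47.1, 61.3 and 73.9 CPM in sorted E2 and 20.9, 27.2 and 36.9 CPM in unsorted E2 libraries. With E2 the groups were apart, and the difference was 1.07 ± 0.13, or 2.10-fold (adjusted p = 7.4e-05). EIF2AK3 stood at 144, 156 and 166 CPM against 105, 121 and 130 CPM, higher by 0.36 ± 0.06 (adjusted p = 0.00061). ATF6 was at 70.6, 90.2 and 106 CPM against 82.7, 109 and 133 CPM. It was called lower here (-0.28 ± 0.06; adjusted p = 0.0023), although not without the block (0.10).

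ATF4 and its targets were again higher in sorted cells. TRIB3 stood at 6.36, 12.5 and 22.6 CPM in sorted E2 and 2.84, 4.04 and 5.79 CPM in unsorted E2 libraries, a 2.87-fold difference with no overlap (1.52 ± 0.19; adjusted p = 4.6e-05). CHAC1 stood at 5.36, 7.63 and 10.4 CPM against 3.11, 4.13 and 5.01 CPM (0.89 ± 0.18; adjusted p = 0.0013). PPP1R15A stood at 104, 113 and 122 CPM against 61, 74 and 93.8 CPM (0.60 ± 0.07; adjusted p = 3.2e-05). For both genes every sorted library was above every unsorted one. ASNS differed by 0.70 ± 0.08 (113, 179 and 222 CPM against 65.5, 106 and 141 CPM; adjusted p = 2.2e-05). ATF4 stood at 673, 735 and 880.2 CPM against 508, 563 and 609 CPM and was higher by 0.42 ± 0.08 (adjusted p = 0.001). DDIT3 stood at 18.8, 25.1 and 38.5 CPM against 14.4, 17.8 and 21 CPM. Its ranges overlapped with E2, and it was higher by 0.56 ± 0.16 (adjusted p = 0.010). The difference was 0.95 in replicates 1 to 3 but 0.23, not called, in replicates 4 to 6 (adjusted p = 0.058).

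CREB3L2 stood at 37.1, 42.7 and 55.1 CPM in sorted E2 and 66.6, 84.4 and 107 CPM in unsorted E2 libraries (-0.95 ± 0.07; adjusted p = 1.2e-06). WFS1 stood at 38.1, 62.7 and 89.8 CPM against 87.4, 137 and 160.3 CPM (-1.11 ± 0.08; adjusted p = 1.2e-06). CREB3L1 stood at 54.1, 84.6 and 106 CPM against 91.3, 170.4 and 325 CPM (-1.13 ± 0.18; adjusted p = 0.00078). All 3 genes were lower, with overlap of the ranges in WFS1 and CREB3L1.

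Of the 13 chaperones and isomerases, 3 were higher and 1 lower in sorted E2 libraries, where 33.9% of all features were higher and 31.8% lower. HSPA5 stood at 1815, 1876 and 2468 CPM in sorted E2 and 1563, 1942 and 2086 CPM in unsorted E2 libraries, a difference of 0.09 ± 0.10 (adjusted p = 0.44). HSP90B1 stood at 1993, 2254 and 2578 CPM against 1584, 1974 and 2361 CPM, a difference of 0.19 ± 0.10 (adjusted p = 0.12). Neither was called. DNAJC3, at 160, 176 and 189.6 CPM against 108, 133 and 169 CPM, was higher by 0.38 ± 0.07 (adjusted p = 0.00097). HYOU1 (0.24 ± 0.09; adjusted p = 0.033) and SDF2L1 (0.51 ± 0.20; adjusted p = 0.045) were called higher. MANF, a small secreted ER protein that protects stressed cells, was called lower (-0.26 ± 0.08; adjusted p = 0.018). Without the block these last 3 calls were lost (adjusted p = 0.18, 0.48 and 0.074). HYOU1 also lost its call without replicate 3, 4, 5 or 6, SDF2L1 without 2, 3, 4 or 6, and MANF without 6. In replicates 1 to 3 alone HYOU1 (0.15; adjusted p = 0.23) and MANF (-0.22; 0.096) were not called. None of the 5 lectin chaperones and disulfide isomerases was called, and their differences lay between -0.20 and 0.21.

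With E2, 2 of the 8 degradation genes were higher (25%) and 5 lower (62.5%), against 33.9% and 31.8% of all features. SEL1L, EDEM2, EDEM3 and DERL2 were called lower in both treatments, DERL1 in vehicle and EDEM1 with E2. HERPUD1 stood at 180.3, 225 and 281 CPM against 135, 145 and 202 CPM (0.52 ± 0.09; adjusted p = 0.00038), and SYVN1 at 85.8, 97.4 and 127 CPM against 63.5, 73.6 and 102 CPM (0.36 ± 0.06; adjusted p = 0.00041). EDEM1 stood at 21.7, 26.9 and 45.7 CPM against 37.1, 41.4 and 57.3 CPM and was called lower here (-0.61 ± 0.10; adjusted p = 0.00039). EDEM2 stood at 25, 35.3 and 39.2 CPM against 39.2, 49.7 and 51.8 CPM (-0.52 ± 0.07; adjusted p = 0.00011). SEL1L differed by -0.39 ± 0.08 (56.6, 64.9 and 85.3 CPM against 68.2, 90 and 102 CPM; adjusted p = 0.0014), and DERL2 by -0.41 ± 0.08 (adjusted p = 0.0011). EDEM3 was called lower at -0.28 ± 0.09 (adjusted p = 0.016; 0.051 without the block). Replicates 1 to 3 gave -0.48, and replicates 4 to 6 gave -0.11 (adjusted p = 0.21). DERL1, at 60.3, 69.7 and 80.8 CPM against 66, 72.5 and 85.1 CPM, was not called (-0.07 ± 0.06; adjusted p = 0.35).

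The study's second question was what E2 changed within 6 hours. In sorted cells ERN1 rose by 2.61-fold, DERL1 and TRIB3 rose less, and EDEM1, DDIT3, PPP1R15A, ATF6 and EIF2AK3 fell. These are 3 of 33 members higher (9.09%) and 5 lower (15.2%), against 7.03% and 6.20% of 14334 features. The median change was 0.02 in the members and 0 over all features. Without the block ERN1 alone was called, and the other 7 calls were lost. Calls over all features went from 1896 to 196. ERN1, EDEM1 and PPP1R15A were called in each depth set alone. In replicates 1 to 3, DDIT3 (-0.29; adjusted p = 0.20) and DERL1 (0.25; 0.084) were not, and EIF2AK3, ATF6 and TRIB3 were called in neither set. The chaperones were not called. Some cell type markers changed with E2 too. Of 5 gonadotrope markers GNRHR rose (2.02 ± 0.18) and FSHB fell (-0.84 ± 0.06). Of 3 thyrotrope markers DIO2 rose (0.40 ± 0.06) while TRHR (-0.97 ± 0.07) and TSHB (-0.30 ± 0.05) fell. The somatotrope list had POU1F1 lower (-0.76 ± 0.05) and GHRHR higher (0.18 ± 0.05), and ALDH1A1 fell (-0.15 ± 0.03). No fibroblast and pericyte (0 of 7), endothelial (0 of 5), corticotrope (0 of 3), lactotrope (0 of 2 tested) or immune marker (0 of 2 tested) was called. The part of these marker changes in the members' changes was not tested.

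**Figure D3:**
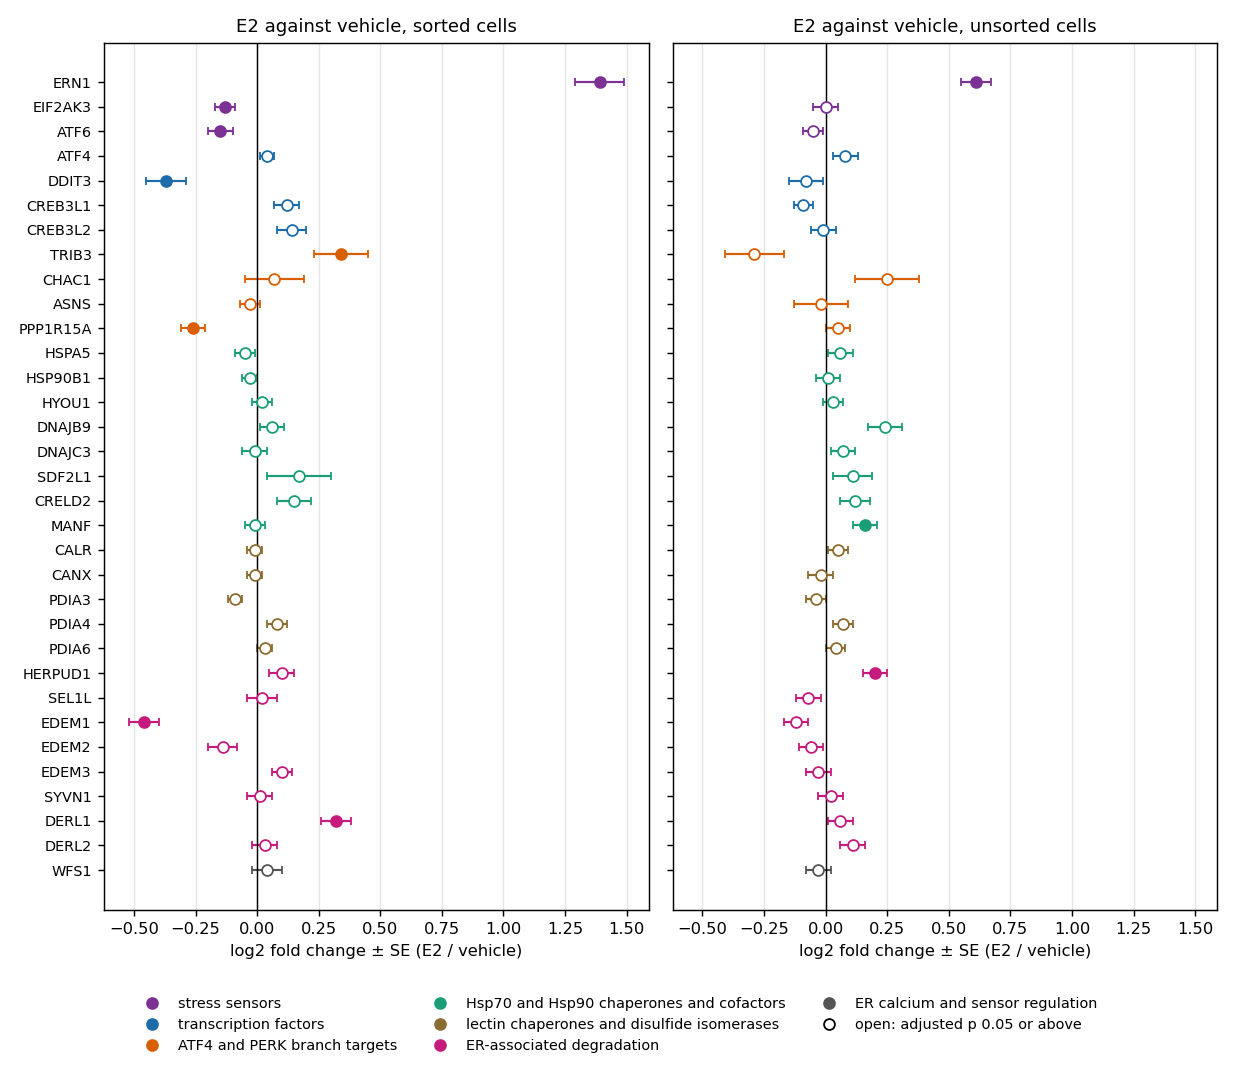
Log2 change with E2 against vehicle for the 33 members, in sorted cells on the left and unsorted cells on the right. Points are edgeR estimates, bars are ± SE, colours are roles, and filled points passed an adjusted p of 0.05. ERN1 lies at 1.39 and 0.61, and the remaining members lie between -0.46 and 0.34 in sorted cells.

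Among the sensors, ERN1 went from 15.5, 22.3 and 27.4 CPM in sorted vehicle to 47.1, 61.3 and 73.9 CPM in sorted E2 libraries. Every E2 library was above every vehicle library. The change was 1.39 ± 0.10 (adjusted p = 1.3e-06; 0.00017 without the block). It was 1.57 in replicates 1 to 3 and 1.28 in replicates 4 to 6 fitted alone. The other sensors changed slightly in the opposite direction and in all 6 pairs. EIF2AK3 fell by 0.13 on the log2 scale (-0.13 ± 0.04; adjusted p = 0.027, 0.91 without the block) and ATF6 by 0.15 (-0.15 ± 0.05; adjusted p = 0.035, 1 without). Leaving out number 2, 3 or 6 ended the call of EIF2AK3, and leaving out 1, 2, 4, 5 or 6 that of ATF6.

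Within the PERK branch the members did not move as one. ATF4 differed by 0.04 ± 0.03 and was not called (adjusted p = 0.56). DDIT3 went from 25.3, 34.7 and 48.5 CPM to 18.8, 25.1 and 38.5 CPM and fell in 5 of 6 pairs, by 0.37 on the log2 scale (-0.37 ± 0.08; adjusted p = 0.0015, 0.93 without the block). Replicate 3 was the exception, at 36 CPM in vehicle and 38.5 CPM in E2. PPP1R15A went from 122, 131 and 167 CPM to 104, 113 and 122 CPM, lower in all 6 pairs (-0.26 ± 0.05; adjusted p = 0.0011, 0.21 without the block). TRIB3 was higher with E2 in 5 of 6 pairs, at 6.36, 12.5 and 22.6 CPM against 6.29, 9.23 and 15.7 CPM. The ranges of TRIB3 overlapped. Its rise of 0.34 ± 0.11 passed with the block (adjusted p = 0.037) but not without it (1), and not without replicate 1, 4 or 6. CHAC1 (0.07 ± 0.12) and ASNS (-0.03 ± 0.04) were not called, nor were CREB3L1 (0.12 ± 0.05) and CREB3L2 (0.14 ± 0.06).

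None of the 13 chaperones and disulfide isomerases was called in sorted cells, and their changes lay between -0.09 and 0.17. Over all features 7.03% were called higher and 6.20% lower. HSPA5 differed by -0.05 ± 0.04 (adjusted p = 0.52) and HSP90B1 by -0.03 ± 0.03 (adjusted p = 0.65). The vehicle and E2 ranges of both genes overlapped.

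In the degradation group, EDEM1 and DERL1 changed in opposite directions and each in all 6 pairs. EDEM1 went from 27, 37.5 and 66.5 CPM to 21.7, 26.9 and 45.7 CPM and fell by 0.46 on the log2 scale (-0.46 ± 0.06; adjusted p = 1.7e-05). Its pairs moved in parallel from very different levels: replicate 5 went from 66.5 to 45.7 CPM and replicate 1 from 27 to 22 CPM. Without the block the adjusted p was 0.81. DERL1 went from 52, 53.2 and 67.1 CPM to 60.3, 69.7 and 80.8 CPM, a rise of 0.32 ± 0.06, or 1.25-fold (adjusted p = 0.00028; 0.16 without the block). Neither gene's groups were apart. The other 6 degradation members, HERPUD1, SEL1L, EDEM2, EDEM3, SYVN1 and DERL2, were not called, nor was WFS1 (0.04 ± 0.06).

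**Figure D4:**
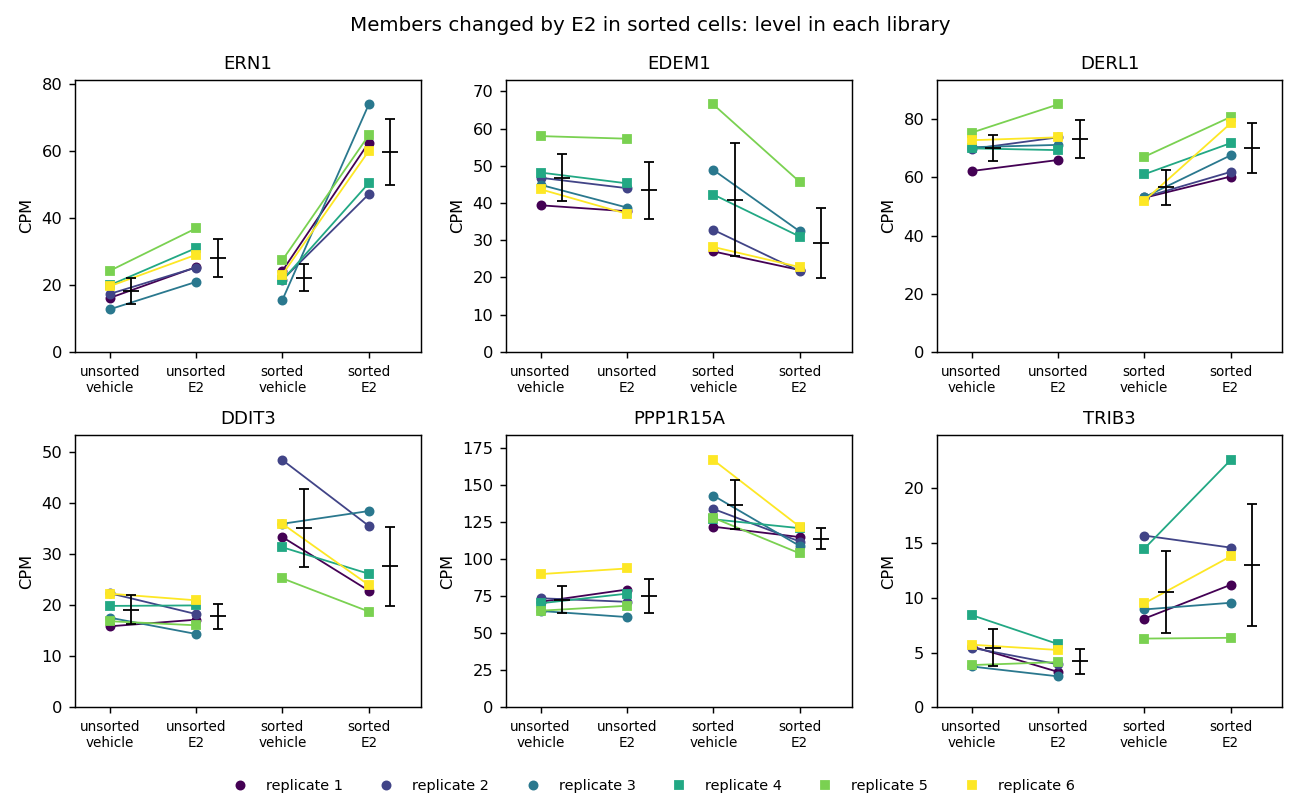
Level in CPM of the 6 members ERN1, EDEM1, DERL1, DDIT3, PPP1R15A and TRIB3 in each of the 24 libraries. Lines join the vehicle and E2 libraries of a replicate number, circles are numbers 1 to 3, squares 4 to 6, and bars are mean ± SD of 6 libraries. For ERN1 all sorted E2 libraries lie at 47.1 CPM or more and all sorted vehicle libraries at 27.4 CPM or less, while EDEM1 lines in sorted cells slope down from different starting levels.

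In unsorted cells ERN1 was again the member with the largest change. It went from 12.7, 18.5 and 24.2 CPM to 20.9, 27.2 and 36.9 CPM, a rise of 0.61 ± 0.06, or 1.53-fold, in all 6 pairs (adjusted p = 7.3e-07). The groups overlapped, and without the block the call was lost (adjusted p = 0.28). In all, 3 of 33 members were called higher (9.09%) and 0 lower, against 2.86% and 2.37% of 15083 features, with medians of 0.03 and -0.01. No member was called without the block, where calls over all features went from 790 to 37. Among markers GNRHR (2.95 ± 0.18), DIO2 (1.01 ± 0.10), GHRHR (0.27 ± 0.05) and DRD2 (0.17 ± 0.05) rose and FSHB (-0.82 ± 0.06), POU1F1 (-0.52 ± 0.05) and TRHR (-0.52 ± 0.08) fell, with 0 of 7 fibroblast and pericyte markers called. HERPUD1 went from 119, 137 and 151 CPM to 135, 145 and 202 CPM, higher by 0.20 ± 0.05 (adjusted p = 0.015, 1 without the block). MANF rose by 0.16 ± 0.05 (adjusted p = 0.043, 1 without). Both were higher in 6 of 6 pairs, but HERPUD1 lost its call without replicate 3, 4 or 5 and MANF without 4, 5 or 6. In replicates 1 to 3 alone neither was called (0.14 and 0.07; adjusted p = 0.80 and 0.95), and HERPUD1 was also not called in replicates 4 to 6 (0.26; 0.086). The remaining 30 members lay between -0.29 (TRIB3) and 0.25 (CHAC1). Here EDEM1 (-0.12 ± 0.05; adjusted p = 0.25), DERL1 (0.06 ± 0.05; adjusted p = 0.61), DDIT3 (-0.08 ± 0.07; adjusted p = 0.63) and PPP1R15A (0.05 ± 0.05; adjusted p = 0.67) were not called.

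Whether E2 acted differently in the sorted and unsorted cells was tested directly, as the E2 effect in sorted minus that in unsorted libraries. The main fit gave each number a single block shared by sorted and unsorted cells. Variation of a number between sorted and unsorted cells therefore stayed in the spread, and a gene not called here may still differ. ERN1 was the member called, with a difference of 0.83 ± 0.17, positive for all 6 numbers (adjusted p = 0.026). That is 1 of 33 members higher and 0 lower, against 0.330% and 0.132% of 15134 features. The call did not hold without the block (adjusted p = 0.65) or when replicate 1, 2, 4, 5 or 6 was left out (up to 0.17). It was 0.95 in replicates 1 to 3 (adjusted p = 0.73) and 0.64 in replicates 4 to 6 (adjusted p = 0.043).

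For the other members called in sorted cells, the difference of effects was not called in the main fit. It was 0.59 ± 0.22 for TRIB3 (adjusted p = 0.56), 0.25 ± 0.08 for DERL1 (0.37), -0.35 ± 0.15 for EDEM1 (0.73), -0.31 ± 0.09 for PPP1R15A (0.22) and -0.27 ± 0.17 for DDIT3 (1). The alternative test DESeq2 called PPP1R15A as well (-0.33; adjusted p = 0.028), and 123 of all features against 70 in the main fit. Another fit gave each number its own block within sorted and within unsorted cells, and was chosen after the data had been seen. It called 4 members and 357 of all features. ERN1 (0.77; adjusted p = 0.00044) and TRIB3 (0.62; adjusted p = 0.037) had the more positive effect in sorted cells, and EDEM1 (-0.34; adjusted p = 0.01) and PPP1R15A (-0.32; adjusted p = 0.01) the more negative one.

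Genes of the same pathways outside the 36 were read from fixed lists. In the sort of vehicle cells, 10 of 20 tested ATF4 target and amino acid response genes were higher (50%) and 3 lower (15%), with a median of 0.26, against 32.5% and 31.1% of all features. Examples are the lipoprotein receptor VLDLR (0.88 ± 0.09), the seryl- and alanyl-tRNA synthetase genes SARS (0.55 ± 0.06) and AARS (0.47 ± 0.06), and the translation repressor EIF4EBP1 (-1.21 ± 0.16). Of 31 other folding enzymes and chaperones 12 were lower (38.7%) and 6 higher (19.4%), with a median of -0.08. The lower ones include the sulfhydryl oxidase QSOX1 (-1.50 ± 0.06) and the prolyl isomerases FKBP14 (-1.74 ± 0.13) and PPIC (-0.94 ± 0.08). Of 7 fibroblast and pericyte markers 5 were lower and 1 was higher, and a link to these genes was not tested. Each named gene passed with and without the block.

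Other degradation genes gave 6 higher (33.3%) and 3 lower (16.7%) of 18, against 32.5% and 31.1% of all features. They were led by ERLEC1 (0.94 ± 0.08) and OS9 (0.51 ± 0.07), lectins that deliver glycoproteins to SYVN1 and SEL1L. Of 25 genes for translocation and signal peptide processing 9 were higher (36%) and 8 lower (32%), among them the signal peptidase subunit gene SEC11C (0.61 ± 0.07) and SSR2 (-0.49 ± 0.08). Of 13 genes around eIF2alpha 3 were higher (23.1%) and 2 lower (15.4%), with the amino acid sensor kinase EIF2AK4 (GCN2) at 0.75 ± 0.09. Of 17 CREB3 family members and partners of ATF6 and IRE1, 8 were higher (47.1%) and 4 lower (23.5%), with the COPII coat gene SEC23A at -0.95 ± 0.08 and the UFM1 ligase UFL1 at 0.63 ± 0.08.

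With E2, each list had 1 gene called in sorted cells. The lists held 31 folding, 18 degradation, 25 translocation, 20 ATF4 target, 13 eIF2alpha and 17 CREB3 family and partner genes tested. Over all features 7.03% were called higher and 6.20% lower. In sorted cells ATF3, a stress-induced partner of ATF4 and DDIT3, fell by 0.44 on the log2 scale (-0.44 ± 0.08; adjusted p = 0.00031), EIF2AK4 by 0.22 (-0.22 ± 0.05; adjusted p = 0.0016) and ERLEC1 by 0.15 (-0.15 ± 0.04; adjusted p = 0.0083). MBTPS1, the protease that cuts ATF6, rose by 0.15 ± 0.04 (adjusted p = 0.0075), TXNDC11 by 0.16 ± 0.04 (0.013) and SRP68 by 0.15 ± 0.05 (0.046). None of these 6 genes passed without the block. In unsorted cells VLDLR rose (0.20 ± 0.05; adjusted p = 0.020) and CREB3L4 fell (-0.39 ± 0.11; adjusted p = 0.046), both also lost without the block. These were the only calls in the lists there, against 2.86% higher and 2.37% lower over all features. No listed gene outside the members was called for the difference of the E2 effects.

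Levels of some chaperone genes also differed between the libraries of a group. SDF2L1, a cofactor of BiP, stood at 7.94, 19.5 and 46.7 CPM in sorted vehicle libraries, and CRELD2, a secreted ER stress protein, at 36.7, 48.4 and 84.5 CPM. The highest value of both came from replicate 5. In that library the 13 chaperone and isomerase genes stood at 0.928 to 2.64 times the median of the other 5 libraries, with a median of 1.40. In unsorted vehicle libraries replicates 1 and 5 each held the group's highest level for 5 of the 13 genes. In sorted E2 libraries replicate 5 held it for 8 and replicate 3 for 3, and in unsorted E2 libraries replicate 5 for 7 and replicate 2 for 5. Over all features replicate 5 held the highest level for 17.5%, 18.1% and 14.9% in these groups. That share was 19% for unsorted vehicle replicate 1, 16.1% for sorted E2 replicate 3 and 20.6% for unsorted E2 replicate 2.

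**Figure D5:**
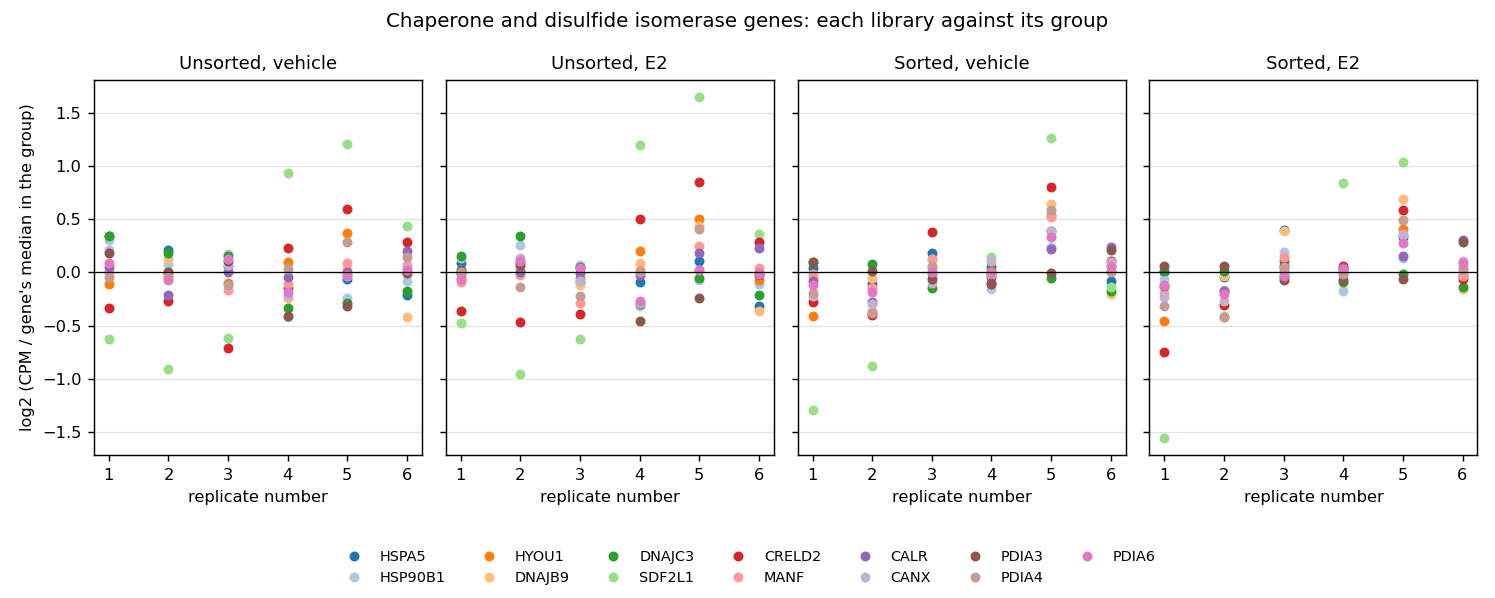
Log2 of each library's CPM over the median of its group for the 13 chaperone and disulfide isomerase genes, by replicate number, in the 4 groups. Each point is 1 gene in 1 library. In sorted vehicle libraries the points of replicate 5 lie mostly above 0, up to SDF2L1 at 46.7 CPM against a median of 19.5 CPM.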

How the data were processed

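The deposited counts are whole reads per gene in 24 libraries, with Ensembl sheep identifiers. Reads were counted with featureCounts 1.5.1, per the submitters' processing notes. Aligner, strand and build: not given in the sources used here. Whether overlapping genes were told apart is therefore not known. Of 27054 features 9994 had no name. The vehicle libraries stood in more than 1 table, with 0 values differing between copies. No per-sample column was left unmapped, and no other library pair was identical.

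Each comparison was fitted on all features with edgeR 4.0.16 in R 4.3.3: TMM normalisation, filterByExpr, robust glmQLFit, the 2-sided quasi-likelihood F-test and Benjamini-Hochberg adjustment. The replicate number was a block. The pairing was checked in the counts after centring by group. Libraries with the same number correlated at 0.29 to 0.859 (36 pairs, median 0.457). Those with other numbers correlated at -0.607 to 0.512 (180 pairs, median -0.164). Centring by group itself lowers the correlations between other numbers, and all pairs of groups were pooled. SE is the log2 change over the square root of F. The fits were tested on simulated counts. The simulation gave all groups the same replicate effects, so it cannot judge the choice of block. Alternatives were no block, DESeq2 1.42.0, RLE factors, no filter, either depth set alone and each number left out of every group.

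The members and lists were chosen with earlier results of these data known. The 3 sensors, ATF4, DDIT3, HSPA5 and HSP90B1 were always described, other members when called, with levels for the 14 of smallest p. Other pathway genes were limited to 4 per list and comparison by p, of which a selection is given. Reads are not independent molecules. Levels are not compared between genes, since no gene lengths were used.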

Additional observations from a re-analysis of the deposited data

Results flagged for a closer look

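For each member the highest and lowest of the 6 libraries in a group were compared with the rest. In 10 of 132 such sets 1 library stood far from the others. Chance alone gives about 1 in 20 for independent sets, but these sets share libraries. All features were not counted in this way, so the 10 sets cannot be read as more than chance gives. In 6 of the 10 sets the library that stood apart was the highest and was sorted vehicle replicate 5. These were HYOU1 at 685 CPM, DNAJB9 at 109 CPM, SDF2L1 at 46.7 CPM, MANF at 218 CPM, PDIA4 at 349 CPM and SEL1L at 82.3 CPM. PDIA4 was also high in unsorted E2 replicate 5, at 358 CPM. Replicate 6 gave the low ATF6 value of 74.8 CPM in sorted vehicle, the high PPP1R15A value of 90 CPM in unsorted vehicle and the high PDIA3 value of 1809.8 CPM in sorted E2 libraries.

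ERN1 was flagged because its response to E2 differed between sorted and unsorted cells, by 0.83 ± 0.17 (adjusted p = 0.026, edgeR with the replicate block). The difference was positive for all 6 numbers. The call was lost without the block (adjusted p = 0.65). Leaving out replicate 1, 2, 4, 5 or 6 also ended it (adjusted p up to 0.17). The difference was not called in replicates 1 to 3 alone (0.73) but was in replicates 4 to 6 (0.043).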

How the results depend on the processing

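No called member changed sign under any alternative run. For sorted against unsorted cells the 21 members called in vehicle ranged from 16 to 23 and the 23 called with E2 from 18 to 26. The counts with E2 moved more. In sorted cells 8 members were called, but 1 without the replicate block, 5 with DESeq2, 3 in replicates 1 to 3, 5 in replicates 4 to 6, and 5 to 9 when 1 number was left out. In unsorted cells 3 were called, but 0 without the block, 1 in replicates 1 to 3, and 1 to 4 with a number left out. For the difference of the E2 effects the count of 1 became 0 without the block, 2 with DESeq2, 0 in replicates 1 to 3, 0 to 1 with a number left out, and 4 with the replicate block within each preparation, which was chosen after seeing the data. 

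Over all features the replicate block mattered in the same comparisons. Calls went from 1896 to 196 for E2 in sorted cells, from 790 to 37 in unsorted cells, and from 70 to 4 for the difference. Replicates 1 to 3 gave 563, 67 and 2, and replicates 4 to 6 gave 1277, 730 and 47. DESeq2 gave 123 for the difference, and the block within each preparation 357. Leaving out a number gave 1361 to 1893, 451 to 822 and 22 to 58. For sorted against unsorted cells, calls went from 9198 to 7267 in vehicle and from 9555 to 7533 with E2 without the block. The causes were not tested, although the depth sets alone hold fewer libraries.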
